A study of Mus musculus with 10 samples.

Results

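The genes described here were expressed in mouse pluripotent stem cells and were at or near 0 in the germ cells made from them and in germ cells of embryos. They were selected on their measured values, as symbols with at least 5 TPM in each of the 4 stem cell libraries and at most 1 TPM in each of the 6 germ cell libraries. TPM is the read count of a gene divided by its length and scaled to a total of 1000000 in each library. Symbols of microRNAs, small nucleolar RNAs, histone, Hox and collagen genes, predicted genes named Gm and pseudogenes ending in -ps were left out by name. Of 36066 symbols in the table, 21559 were kept, 4619 reached 5 TPM in all 4 stem cell libraries and 60 met both limits, which is 1.30% of the 4619. By contrast, 3698 of the 4619 genes (80.1%) stayed at 5 TPM or more in all 10 libraries. Since the contrast of stem cells with germ cells chose the 60 genes, it is given as values, with no test.

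RNA was sequenced from 2 replicates of each of 5 groups of C57BL6 mouse cells, with no group given a mutation or drug by its labels. ESCs were a female embryonic stem cell line from fertilized embryos. pESCs were a parthenogenetic line, derived from activated oocytes and carrying maternal chromosomes alone. Per the study's methods both kinds of line came from Actin-GFP mice, were established on feeder fibroblasts in serum with LIF, and were held in a medium of inhibitors and LIF before induction. Which medium the sequenced stem cells were in is not given in the sources used here. ESC-PGCLCs and pESC-PGCLCs, primordial germ cell-like cells, were made from these lines through 2 days as epiblast-like cells, then 4 days with BMP4 (500 ng/ml), SCF (100 ng/ml), EGF (50 ng/ml) and LIF (1000 IU), and were sorted on SSEA1 and CD61. PGCs, primordial germ cells, were sorted from female embryos, and the labels give no embryonic day for their libraries. The labels do not say that the 2 replicates of a group came from separate cultures or animals, so p-values here measure the spread between these libraries. The labels name each stem cell group as 1 line, so a difference between ESCs and pESCs cannot be told apart from a difference between lines.

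Pluripotent stem cells keep the gene programme of the early embryo running in culture. Their circuit is built around Oct4, Sox2 and Nanog, and naive cells add factors such as Klf4 and Esrrb. Primordial germ cells arise from the epiblast under BMP signals and start a germline programme, but they share several pluripotency factors with stem cells. Many other genes active in stem cells in culture encode enzymes, secreted factors, membrane proteins or proteins best known from adult tissues.

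Depth, recovered from TPM and exon length as whole reads, lay between 6779848 reads in ESC-PGCLC replicate 2 and 18572926 reads in ESC replicate 2. The 10 germ cell markers summed to 407 to 931 TPM in the stem cell libraries and to 5465 to 7904 TPM in the germ cell libraries. Dppa3 alone made up 353 to 873 TPM and 3165 to 5681 TPM of these sums in turn. Prdm14 overlapped, at 10.9 to 18.1 TPM in stem cells and 13.8 to 21.7 TPM in germ cells. The 8 stem cell markers summed to 652 to 1054 TPM in the stem cell libraries and to 134 to 220 TPM in the germ cell libraries. Among them Pou5f1, which encodes Oct4 and marks both kinds of cell, was at 7.5 to 23.5 TPM in stem cells but at 0 to 3.1 TPM in germ cells. Sox2 was at 32.7 to 62.4 TPM in stem cells and at 97.3 and 110 TPM in ESC-PGCLCs. It was at 23.9 and 29.7 TPM in pESC-PGCLCs and 83.4 and 75.1 TPM in PGCs. Blood markers summed to 487 to 556 TPM in ESC-PGCLCs, 2870 to 3398 TPM in pESC-PGCLCs and 1961 to 2147 TPM in PGCs. In stem cells they summed to at most 4.44 TPM. Gonadal somatic markers summed to 16.9 to 21.6 TPM in ESC-PGCLCs, 39.7 to 45.9 TPM in pESC-PGCLCs and 79.8 to 86.2 TPM in PGCs, against 3.79 to 4.77 TPM in stem cells. No marker of feeder fibroblasts, blood, gonadal somatic cells, endoderm or trophoblast was among the 60 genes. Only 4 of these markers, all of feeder fibroblasts, reached 5 TPM in every stem cell library, and they stayed at 5 TPM or more in all 10 libraries. Their absence from the 60 is thus no measure of these cell types. The 28 feeder fibroblast markers summed to 239 to 244 TPM in ESCs and 155 to 183 TPM in pESCs, against 66.1 to 68.0 TPM in ESC-PGCLCs, 110 to 111 TPM in pESC-PGCLCs and 134 to 156 TPM in PGCs. Only 4 of them were at 1 TPM or more in both libraries of ESCs and of pESCs, and 12 in PGCs, and Sparc alone made up 106 to 171 TPM of the stem cell sums. The part of these other cell types in the levels below was not tested. In bulk RNA, fewer cells that express a gene and less RNA per cell cannot be told apart.

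The 60 genes together held 1100 to 1327 TPM in the stem cell libraries and 9.86 to 24.7 TPM in the germ cell libraries. In percent of the stem cell mean, their sum was 0.948% and 1.04% in ESC-PGCLCs, 1.33% and 1.98% in pESC-PGCLCs and 0.789% and 0.938% in PGCs. Most were modest genes even in stem cells. The median of their means over the 4 libraries was 12.5 TPM, 25 were under 10 TPM, 31 lay from 10 to under 50 TPM and 4 were at 50 TPM or more. Between the highest and the lowest stem cell library a gene differed by 1.68-fold in the median.

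**Figure D1:**
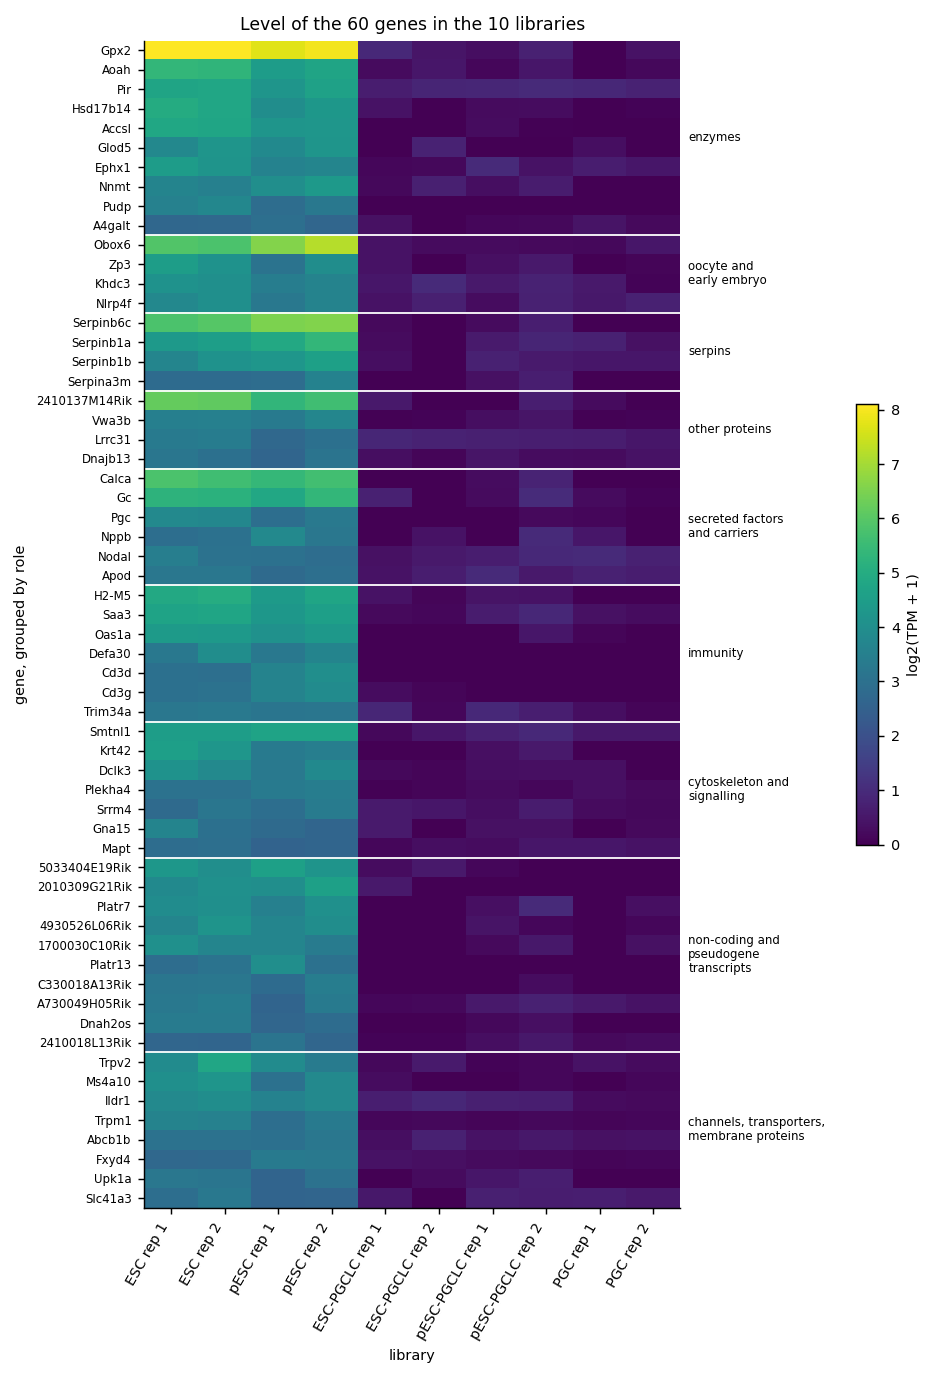
Heat map of log2(TPM + 1) for the 60 genes (rows, grouped by known role and ordered by their mean in stem cells) in the 10 libraries (columns). The stem cell columns run from 5 TPM up to 274 TPM (Gpx2), and the germ cell columns end at 1 TPM, since these limits chose the genes.

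The limit of 1 TPM is not silence. Reads fell on 56 of the 60 genes in at least 1 germ cell library, and 23 genes were above 0 in all 6. Whole reads could be recovered for 58 genes, with a median of 1174 reads over the 4 stem cell libraries and 20 reads over the 6 germ cell libraries. Over all germ cell libraries, 3 of these 58 genes had no read, 13 had 1 to 10, 28 had 11 to 50 and 14 had more than 50. Pir had the most, 189 reads. Cd3d, Defa30, Pudp and Platr13 were listed at 0 in all 6 germ cell libraries. With a floor of 3 reads over the 6 libraries, Cd3d was at least 255-fold lower in germ cells than in stem cells, Defa30 at least 60.7-fold and Platr13 at least 47.5-fold. Reads on Pudp did not come out whole, so it has no such bound. These floors cover counting error alone.

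The distance from the limits also varied. For the 56 genes with a germ cell value above 0, the lowest stem cell library was 18.8 times the highest germ cell library in the median, from 6.23 times for Apod to 231 times for Gpx2. At the floor, Mapt (5.03 TPM in its lowest stem cell library), Upk1a (5.04 TPM) and A730049H05Rik (5.11 TPM) lay just inside, and Nod1 (4.84 TPM), Cltb (4.83 TPM) and Irak3 (4.74 TPM) just outside. At the ceiling, Gc (0.979 TPM in its highest germ cell library), Nodal (0.973 TPM) and Ephx1 (0.963 TPM) lay just inside. Cbr3 (1.004 TPM), 2610509F24Rik (1.015 TPM) and 4930558C23Rik (1.018 TPM) were left out by less than 0.02 TPM.

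**Figure D2:**
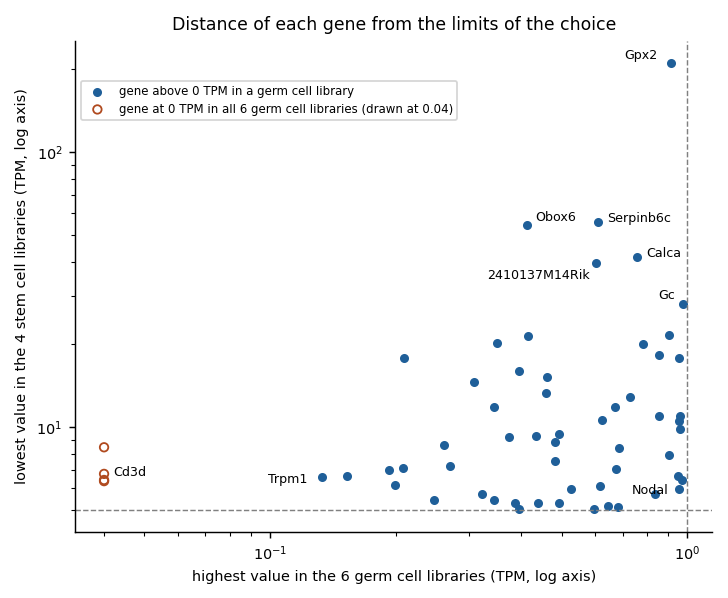
Lowest value in the 4 stem cell libraries against the highest value in the 6 germ cell libraries for each of the 60 genes, in TPM on log axes, with the limits of 5 and 1 TPM as dashed lines. Gpx2 stands at 211 and 0.913 TPM, many genes sit close to a limit, and the 4 genes at 0 in germ cells are open circles drawn at 0.04 TPM.

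The limits were also applied to 1 replicate at a time, and the genes found were read in the other replicate. The first replicate of each group alone chose 89 genes, of which 60 (67.4%) met both limits in the second replicate. These are the 60 genes themselves, since genes that meet the limits in both replicates are the choice. The shares describe how far the replicates agree, and the labels do not show the replicates to be separate cultures. In the second replicate 6 of the 89 fell under 5 TPM in a stem cell library and 25 exceeded 1 TPM in a germ cell library, where the highest reached 2.44 TPM. For all 89, both second stem cell libraries were above all 3 second germ cell libraries. Chosen in the second replicate, 93 genes were found, 60 of them (64.5%) met both limits in the first, and stem cells were above germ cells for all 93. For the 60 genes within the 89 and the 93 the limits fixed this order, so only the remaining genes could have gone another way.

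The germ cell groups differed in how many stem cell genes were at 1 TPM or less. Among the 4619 genes this held for 176 in both ESC-PGCLC libraries, 117 in both PGC libraries and 70 in both pESC-PGCLC libraries. All 4 PGCLC libraries shared 64 such genes, and only 4 of these were above 1 TPM in a PGC library. A further 57 genes were at 1 TPM or less in PGCs but higher in a PGCLC library. The highest germ cell value came from a pESC-PGCLC library for 33 genes (replicate 2 for 24 of them), from ESC-PGCLCs for 17 and from PGCs for 6. Replicate 2 of pESC-PGCLCs also held the most reads of the germ cell libraries, 16704590. The 4619 genes were also higher in pESC-PGCLCs than in ESC-PGCLCs by a median of 0.51 on the log2 scale in TPM. With libraries scaled to a shared median this was 0.12. The parts of depth and of scaling in this pattern were not tested.

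Core pluripotency genes were not among the 60. Of 25 naive and core pluripotency factors, 23 were at 5 TPM or more in all stem cell libraries, 15 of these stayed so in all 10 libraries, and none met the ceiling of 1 TPM. Fgf4, a growth factor of the naive state, missed it through pESC-PGCLC replicate 2 alone, at 1.2 TPM. Across 29 gene lists, 4 genes of the 60 appeared: Nodal among 21 genes of the Nodal and TGF-beta pathway, Krt42 among 22 keratins and epithelial proteases, Oas1a among 29 interferon and innate immunity genes, and Gpx2 among 31 glutathione and detoxification genes. Those lists held 7, 5, 8 and 20 genes at 5 TPM or more in stem cells. The lists of hypoxia and glycolysis targets (15 such genes), sterol synthesis and lipid metabolism (21) and the one-carbon, nucleotide and amino acid enzymes (20) held none of the 60. The 60 genes were therefore grouped by what each is known to do, after their names had been seen.

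Enzymes were the group with the most abundant gene. Gpx2, on chromosome 12 from 76792333 to 76795554 (GRCm38), encodes a glutathione peroxidase best known from gut epithelium that detoxifies peroxides. It was at 274 and 271 TPM in ESCs, 211 and 247 TPM in pESCs, 0.913 and 0.381 TPM in ESC-PGCLCs, 0.219 and 0.693 TPM in pESC-PGCLCs, and 0 and 0.309 TPM in PGCs. No other of the 60 genes had a mean of 100 TPM or more in stem cells. Aoah, an acyloxyacyl hydrolase that strips fatty acids from bacterial lipopolysaccharide, was at 40.0 and 38.2 TPM in ESCs and at 21.5 and 25.8 TPM in pESCs. Pir, the iron-binding nuclear protein pirin, had a stem cell mean of 23.6 TPM, and in germ cells it kept 0.568 to 0.957 TPM. Pir and Glod5, named for its glyoxalase domain (stem cell mean 15.4 TPM), lie on the X chromosome.

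Several of these enzymes act on steroids, foreign compounds or small metabolites. Hsd17b14, a hydroxysteroid dehydrogenase, was at 30.6 and 26.5 TPM in ESCs, 14.6 and 18.6 TPM in pESCs and at most 0.308 TPM in germ cells. Ephx1, the microsomal epoxide hydrolase, had a stem cell mean of 15.4 TPM and reached 0.963 TPM in pESC-PGCLC replicate 1. Nnmt, which methylates nicotinamide at the expense of S-adenosylmethionine, was at 11.6 and 10.62 TPM in ESCs and 15.1 and 19.8 TPM in pESCs, and was listed at 0 in both PGC libraries. Accsl is named for its likeness to a plant enzyme of ethylene synthesis. Its stem cell mean was 22.4 TPM, and it was at 0 in all germ cell libraries but the 2 of pESC-PGCLCs (0.210 and 0.0379 TPM). A4galt, which makes the globo-series glycolipid Gb3, had a mean of 5.84 TPM, and Pudp, a phosphatase of pseudouridine monophosphate, had a mean of 9.55 TPM.

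Genes of oocytes and early embryos made up a small group of 4. Obox6, on chromosome 7 from 15833241 to 15839678, belongs to a family of homeobox genes of oocytes and early embryos. It was at 58.9 and 54.6 TPM in ESCs and 94.99 and 145 TPM in pESCs, so both pESC libraries were above both ESC libraries. In germ cells it was at 0.117 to 0.412 TPM. Zp3, a glycoprotein of the egg coat that sperm bind, was at 21.6 and 16.5 TPM in ESCs and 7.57 and 14.8 TPM in pESCs. In PGCs, which in females go on to form the oocytes that wear this coat, it was at 0 and 0.0837 TPM. Khdc3 (Filia), a protein of the subcortical complex of oocytes, had a stem cell mean of 13.2 TPM, and Nlrp4f, of the NLRP family active in oocytes, 12.0 TPM. Khdc3 shares 38.5% of its exon bases with Gm20509, which averaged 57.0 TPM in stem cells, so its own level is uncertain.

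Serpins, inhibitors of serine proteases, formed a group of 4. Serpinb6c, on chromosome 13 from 33879816 to 33905708, was at 55.6 and 62.2 TPM in ESCs and 89.2 and 93.3 TPM in pESCs. Its germ cell libraries ranged from 0 to 0.611 TPM, with both PGC libraries at 0. Serpinb1a, an inhibitor of neutrophil elastase, was at 20.1 and 22.5 TPM in ESCs and 28.8 and 40.0 TPM in pESCs. Serpinb1b was at 11.8 and 16.4 TPM in ESCs and 18.1 and 23.2 TPM in pESCs. These 3 genes lie in the clade B cluster of chromosome 13, Serpinb1a and Serpinb1b 227 kb apart. Serpina3m, of the secreted clade A, had a mean of 7.43 TPM. In germ cells none of the 4 exceeded 0.784 TPM.

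Secreted proteins came from unrelated families. Calca, which encodes calcitonin and the neuropeptide CGRP, was at 55.5 and 48.5 TPM in ESCs, 41.6 and 48.9 TPM in pESCs, 0.209 and 0.757 TPM in pESC-PGCLCs and 0 in the other 4 libraries. Gc, the vitamin D-binding protein of plasma, was at 36.5 and 35.0 TPM in ESCs and 28.0 and 40.3 TPM in pESCs. Nodal, a TGF-beta family ligand that patterns the embryo and sustains the primed epiblast, was at 10.1 and 7.31 TPM in ESCs and 7.06 and 6.44 TPM in pESCs. Its germ cell values, 0.301 and 0.469 TPM in ESC-PGCLCs, 0.561 and 0.913 TPM in pESC-PGCLCs and 0.973 and 0.687 TPM in PGCs, lay nearest to the ceiling in pESC-PGCLC replicate 2 and PGC replicate 1. Nppb, the natriuretic peptide BNP, had a stem cell mean of 8.75 TPM and Apod, a lipocalin, 7.34 TPM. The gene Pgc, which encodes the stomach protease precursor pepsinogen C and shares its letters with the cells by coincidence, had a stem cell mean of 10.2 TPM and at most 0.153 TPM in germ cells.

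Among 7 genes of immunity, Cd3d and Cd3g encode subunits of the T cell receptor complex and lie 1.36 kb apart on chromosome 9 on opposite strands. Cd3d was at 6.88 and 6.77 TPM in ESCs and 11.3 and 15.0 TPM in pESCs, and at 0 in all germ cell libraries. Cd3g was at 6.97 and 7.36 TPM in ESCs and 11.3 and 14.05 TPM in pESCs, 0.193 and 0.0752 TPM in ESC-PGCLCs, and 0 in the other 4 germ cell libraries. The levels of these neighbours thus ran together over the stem cell libraries. H2-M5, a class Ib histocompatibility gene, had a stem cell mean of 26.5 TPM. It lies 2.82 kb from 2410137M14Rik, an uncharacterized gene at 72.6 and 68.8 TPM in ESCs and 39.5 and 48.1 TPM in pESCs. Saa3, an acute-phase serum amyloid, was at 24.95 and 26.4 TPM in ESCs and 18.3 and 22.8 TPM in pESCs, and Defa30, an alpha-defensin of gut Paneth cells, had a mean of 10.9 TPM from 171 reads. Oas1a, an interferon-induced sensor of double-stranded RNA, had a mean of 18.8 TPM and Trim34a, another interferon-induced gene, 8.21 TPM. The levels of both are uncertain, since 40.9% of the 100-base stretches of Oas1a also occur in other genes, mainly Oas1g, and 39.0% of those of Trim34a, mainly in Trim34b. Trim34a also shares 23.5% of its exon bases with Gm47248 on the other strand (23.9 TPM in stem cells).

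Membrane proteins numbered 8, and their stem cell means ran from 6.38 to 16.0 TPM. Trpv2, a cation channel, was at 14.01 and 26.6 TPM in ESCs, where its replicates disagreed, and at 14.1 and 9.41 TPM in pESCs. Trpm1, the channel of retinal bipolar cells, had a stem cell mean of 9.42 TPM from 5427 reads and at most 0.133 TPM in germ cells, the lowest such value among the 56 genes above 0. Ms4a10 had a mean of 13.3 TPM, Ildr1, a receptor of tricellular junctions, 12.9 TPM, Abcb1b, a P-glycoprotein drug pump, 7.42 TPM, Upk1a, a plaque protein of the bladder lining, 7.08 TPM, and Slc41a3, of a family of magnesium transporters, 6.38 TPM. Fxyd4, a regulator of the sodium pump in kidney, was at 5.71 and 5.76 TPM in ESCs and 8.84 and 8.67 TPM in pESCs. Its replicates were tighter than the gap between the lines.

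Cytoskeletal and signalling genes included Krt42, a type I keratin, at 22.6 and 18.3 TPM in ESCs and 8.84 and 9.94 TPM in pESCs. Smtnl1, a smoothelin-like protein of muscle, was at 21.6 TPM in both ESC libraries and 25.01 and 24.8 TPM in pESCs. Dclk3, a kinase of the doublecortin family, had a mean of 12.9 TPM, Plekha4, a pleckstrin homology domain protein, 8.28 TPM, and Gna15, a G protein alpha subunit, 7.47 TPM. A pair of genes is best known from neurons: Mapt, which encodes tau, had a mean of 5.86 TPM, and Srrm4, a splicing factor of neuronal microexons, 7.51 TPM. Hsd17b14 and Plekha4 are neighbours, 0.664 kb apart on chromosome 7. In pESCs Hsd17b14 was below its ESC levels and Plekha4, at 8.91 and 9.74 TPM against 7.26 and 7.22 TPM, above them. Of the other proteins, Vwa3b (10.62 TPM), Lrrc31 (7.88 TPM) and Dnajb13, a chaperone of sperm flagella (6.99 TPM), were modest. Dnajb13 shares 11.2% of its exon bases with Ucp2 on the other strand (15.6 TPM in stem cells), so its own level is uncertain.

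Non-coding and pseudogene transcripts made up 10 of the 60 by their known products. GENCODE classed 51 of the 60 as protein coding, 4 as antisense, 3 as lincRNA and 1 as a transcribed pseudogene, and 1 (1700030C10Rik) had no single gene model. Platr7 and Platr13 are long non-coding RNAs named as pluripotency-associated transcripts. Platr7 was at 14.2 and 15.6 TPM in ESCs and 10.5 and 15.7 TPM in pESCs, and reached 0.956 TPM in pESC-PGCLC replicate 2. Platr13 was at 6.37 and 7.40 TPM in ESCs and at 15.2 and 7.08 TPM in pESCs, from 128 reads, and its pESC replicates disagreed. The pseudogene 5033404E19Rik had the highest stem cell mean of the group, 18.6 TPM, and 2410018L13Rik the lowest, 5.94 TPM. The means of 2010309G21Rik, 4930526L06Rik, 1700030C10Rik, C330018A13Rik, A730049H05Rik and Dnah2os lay between them. The study's methods name Smart-seq2 libraries and the labels name another kit, NEBNext Ultra RNA, and neither says that the strand was kept. If it was not, reads of an antisense gene and its partner cannot be told apart. Dnah2os shares 36.3% of its exon bases with Dnah2 (0.418 TPM in stem cells) and A730049H05Rik shares 36.9% with Adamts9 (1.62 TPM). The level of 2410018L13Rik is uncertain too, as it shares 35.6% of its exon bases with other genes, mainly Gm49686.

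The sequence at the starts of the genes was not used in their choice. CpG sites, where DNA methylation sits in mammals, are dense at the starts of most broadly expressed genes and sparse at the starts of many tissue-specific genes. The count of CpG sites is set against the count expected from the C and G content, and a value under 0.6 marks a CpG-poor sequence. In the first 300 bases of the transcript that starts farthest upstream in GENCODE, the median of this ratio was 0.321 in 59 of the 60 genes and 0.785 in 3650 genes of at least 5 TPM in all 10 libraries. It was under 0.6 in 53 of 59 genes (89.8%), against 24.5% of the 3650 genes and 50.0% of 21301 kept symbols. Among protein-coding genes alone it was under 0.6 in 46 of 51 genes (90.2%) against 23.3%. The exceptions were Slc41a3, Plekha4, Srrm4, Dclk3, 2410018L13Rik and Mapt, of which Mapt had the highest ratio, 0.924. The 60 genes were also shorter, with a median exon length of 2046 nt against 3249 nt. These shares are descriptions, with no test, and genes are not independent samples.

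**Figure D3:**
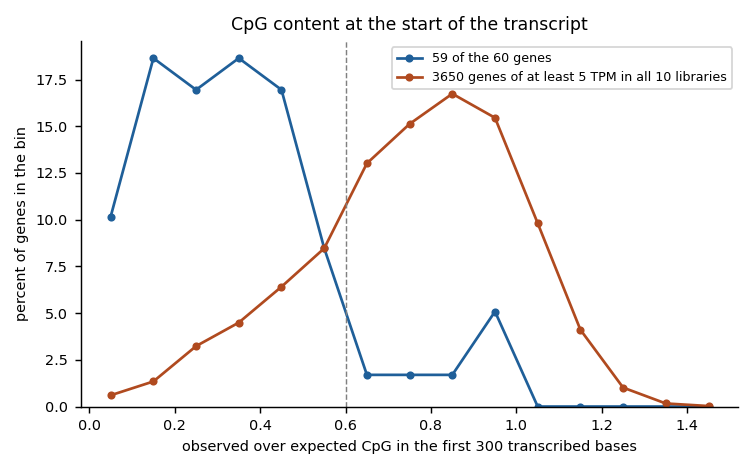
Percent of genes in bins of the observed over expected CpG ratio in the first 300 transcribed bases, for 59 of the 60 genes and for 3650 genes of at least 5 TPM in all 10 libraries. The dashed line marks a ratio of 0.6, and 89.8% of the first set and 24.5% of the second lie under it.

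CpG sites can also be read base by base in the promoters. RefSeq windows (GRCm38.p6) of 250 bases before and 50 bases after the start matched 47 of the 60 genes, 78.3%, too few for a comparison of sets. These 47 windows held from 0 CpG sites (Gpx2 among others) to 31 (2410018L13Rik), and 7 of them had a ratio of at least 0.6. Shown as examples, and not spanning that range, are the 5 matched genes with the highest stem cell means. They are given 5′ to 3′ on the gene's own strand, with CpG sites in capitals. All 5 are on the minus strand, at chr12:76795505-76795804 for Gpx2, chr13:33905142-33905441 for Serpinb6c, chr17:36981188-36981487 for 2410137M14Rik, chr7:114636308-114636607 for Calca and chr5:89457849-89458148 for Gc. The windows hold 0, 10, 11, 8 and 0 CpG sites, against a median of 7 over all 27017 windows and 22 over those of 2850 genes of at least 5 TPM in all 10 libraries.
Gpx2: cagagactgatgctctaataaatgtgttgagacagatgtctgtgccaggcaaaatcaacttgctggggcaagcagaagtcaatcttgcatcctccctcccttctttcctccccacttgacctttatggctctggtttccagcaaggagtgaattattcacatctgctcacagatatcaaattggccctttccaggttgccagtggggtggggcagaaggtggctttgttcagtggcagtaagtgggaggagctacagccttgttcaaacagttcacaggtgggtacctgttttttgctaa
Serpinb6c: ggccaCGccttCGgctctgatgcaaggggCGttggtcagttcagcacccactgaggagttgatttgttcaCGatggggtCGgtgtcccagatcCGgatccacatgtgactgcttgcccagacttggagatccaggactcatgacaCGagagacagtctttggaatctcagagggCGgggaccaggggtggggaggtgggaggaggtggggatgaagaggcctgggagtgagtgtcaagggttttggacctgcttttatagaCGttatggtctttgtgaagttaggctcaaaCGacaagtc
2410137M14Rik: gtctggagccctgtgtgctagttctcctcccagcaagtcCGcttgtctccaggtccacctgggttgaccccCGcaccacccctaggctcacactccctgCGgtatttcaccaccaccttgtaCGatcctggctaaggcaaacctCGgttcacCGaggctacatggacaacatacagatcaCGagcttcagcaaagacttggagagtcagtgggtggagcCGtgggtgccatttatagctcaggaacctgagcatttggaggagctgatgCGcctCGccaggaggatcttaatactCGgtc
Calca: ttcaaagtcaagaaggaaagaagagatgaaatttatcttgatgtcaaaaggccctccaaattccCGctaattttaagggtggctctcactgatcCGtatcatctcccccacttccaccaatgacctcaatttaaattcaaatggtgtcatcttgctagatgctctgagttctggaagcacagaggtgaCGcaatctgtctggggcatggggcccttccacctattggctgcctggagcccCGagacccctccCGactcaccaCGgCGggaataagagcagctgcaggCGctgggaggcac
Gc: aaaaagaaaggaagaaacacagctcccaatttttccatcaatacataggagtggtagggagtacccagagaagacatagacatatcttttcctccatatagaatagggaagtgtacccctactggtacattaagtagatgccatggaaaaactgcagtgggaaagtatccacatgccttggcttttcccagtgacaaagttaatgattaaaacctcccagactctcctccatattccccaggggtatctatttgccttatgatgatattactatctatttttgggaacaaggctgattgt

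The letters TATAAA, on either strand, were found in the windows of Serpinb6c (base 254, counted from the 5′ end of a window whose first 250 bases precede the start) and 2410137M14Rik (base 231), and in 14.2% of all windows. The GC box letters GGGCGG were found in the window of Serpinb6c (base 172) and in 36.0% of all windows. A match is a run of letters and not evidence of a bound factor. By position, chromosome 7 held 9 of the 59 placed genes (15.3%), against 6.71% of the stem cell genes, and chromosome 14 held none.

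Whether the genes differed between the parthenogenetic and the fertilized line was tested with limma on log2(TPM + 1), since the choice had not used that difference. Its floor of 5 TPM did limit the size of a difference, as a gene near the floor in either group could hardly be lower in the other. The stem cell genes share this floor, and all genes tested do not. The fit took in the 27259 genes that reached 0.1 TPM in 2 or more libraries, and p-values were adjusted over all of them by the Benjamini-Hochberg method. A call needed an adjusted p below 0.05 together with a 2-fold difference or more. Of the 60 genes 1 was called, Krt42, lower in pESCs, where 0.781% of all genes tested and 2.12% of the stem cell genes were called. Krt42 fell by 1.04 on the log2 scale (SE 0.18, limma adjusted p = 0.0473), with levels of 20.4 ± 3.05 TPM (SD, n = 2) in ESCs and 9.39 ± 0.78 TPM in pESCs. The call rests on every library but pESC replicate 2. Its limma adjusted p was 0.360 without ESC replicate 1, 0.139 without ESC replicate 2 and 0.162 without pESC replicate 1. The call was also lost with median centring (log2 fold change -0.71, limma adjusted p = 0.0845), with quantile normalization (-0.64, limma adjusted p = 0.105) and with a replicate block (limma adjusted p = 0.0733). With the compared groups alone, and so no germ cell library in the spread, Krt42 had a limma adjusted p of 0.172. None of the 20815 genes then tested was called.

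Next to the limit was Obox6, higher in pESCs by 1.04 on the log2 scale (SE 0.22, limma adjusted p = 0.0664), with 56.7 ± 3.04 TPM (SD, n = 2) in ESCs and 120.0 ± 35.4 TPM in pESCs. Cd3d was higher by 0.85 (SE 0.18, limma adjusted p = 0.0615) and Cd3g by 0.74 (SE 0.17, limma adjusted p = 0.0736). These 3 genes did not pass, but they passed under median centring, and Obox6 and Cd3d also under quantile normalization. Of all genes tested 0.453% were called higher with median centring and 0.241% with quantile normalization. With libraries centred on a shared median, Obox6 (log2 fold change 1.403), Cd3d (1.20) and Cd3g (1.09) were called, with limma adjusted p-values of 0.0158, 0.0152 and 0.0237. In the other direction Hsd17b14 differed by -0.75 (SE 0.20, limma adjusted p = 0.0980) and Aoah by -0.71 (SE 0.20, limma adjusted p = 0.106). At an unadjusted limma p under 0.05 there were 21 of the 60 genes, 8 higher and 13 lower in pESCs. Of all genes tested 3.26% were higher and 14.5% lower at that threshold, and of the stem cell genes 3.88% and 37.9%.

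The split of directions depended on the scaling. In TPM, both pESC libraries were above both ESC libraries for 12 of the 60 genes (20%) and below for 29 (48.3%). Over all genes tested these shares were 11.7% and 31.3%, and over the stem cell genes 9.55% and 58.3%. The median log2 fold change was -0.20 over the 60 genes, -0.06 over all genes tested and -0.35 over the stem cell genes. With median centring, which moved the stem cell genes to 0.01, the median of the 60 became 0.13, with 28 genes above and 12 below without overlap, against 22.5% and 18.8% of all genes tested and 29.8% and 32.4% of the stem cell genes. Under TPM, median centring and quantile normalization alike, 12 genes were higher and 12 lower in pESCs without overlap. Of all genes tested 11.1% and 18.5% did so, and of the stem cell genes 8.83% and 32.1%. The 12 higher were Obox6, Cd3d, Cd3g, Nnmt, Fxyd4, Nppb, Plekha4, Smtnl1 and the 4 serpins. The 12 lower were Krt42, Hsd17b14, Aoah, Ephx1, 2410137M14Rik, Pgc, Pudp, Dnah2os, Khdc3, Accsl, Lrrc31 and Trpm1.

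**Figure D4:**
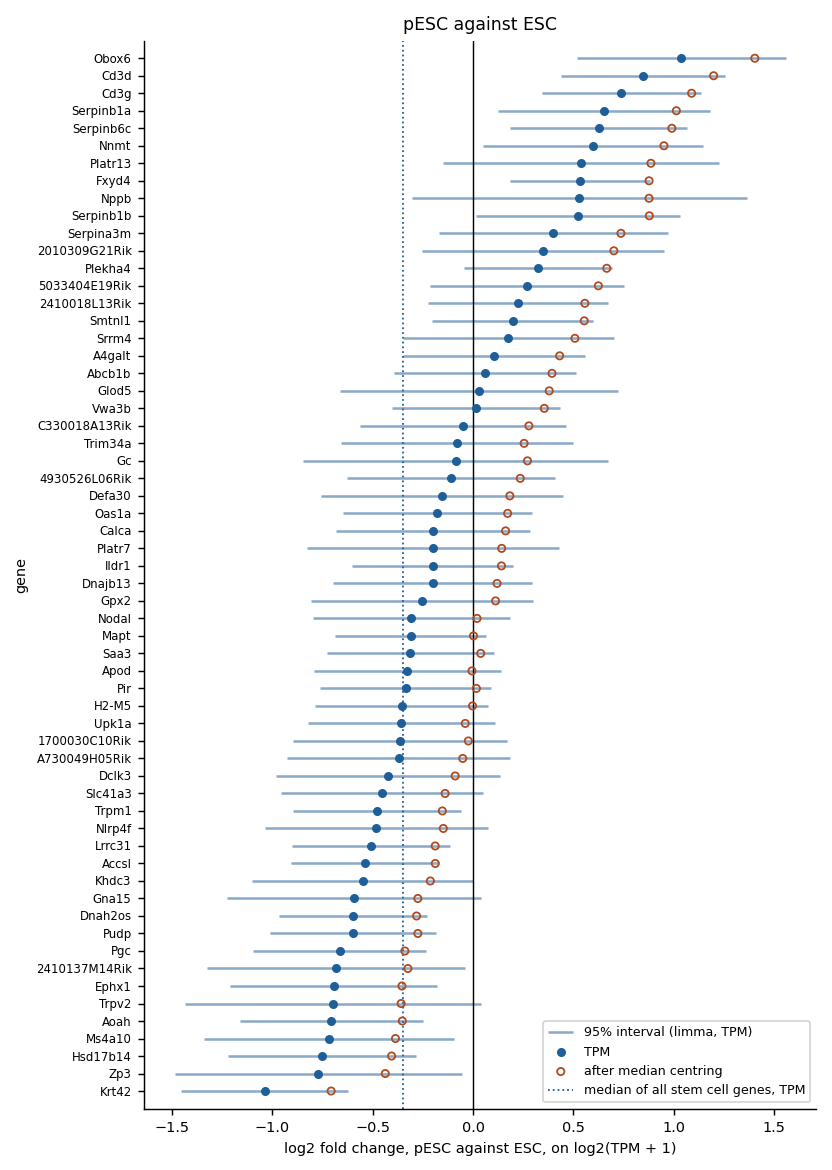
Log2 fold change of pESCs against ESCs for each of the 60 genes on the log2(TPM + 1) scale, with 95% intervals from limma (n = 2 libraries in each group), in TPM (filled) and after median centring (open). The values run from -1.04 (Krt42) to 1.04 (Obox6) in TPM, and centring moves the points to the right.

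In the 2 kinds of PGCLC the same genes were compared at levels of 1 TPM or less, which the choice had fixed. Since log2(TPM + 1) cannot differ by more than 1 between values of 0 and 1 TPM, and none of the 60 exceeded 0.979 TPM, no gene could reach the 2-fold difference that a call by limma needed. The 0 calls were thus fixed by the choice, and the 13.4% of all genes tested that were called are no measure for them. At an unadjusted limma p under 0.05 there were 9, all higher in pESC-PGCLCs, where 26.1% of all genes tested were higher and 9.24% lower, and 51.5% and 8.55% of the stem cell genes. Both pESC-PGCLC libraries were above both ESC-PGCLC libraries for 24 of the 60 genes (40%) and below for 6 (10%). Over all genes tested the shares were 41.8% and 17.9%. The smallest adjusted p was that of Saa3, at 0.541 and 0.856 TPM in pESC-PGCLCs and 0.161 and 0.0943 TPM in ESC-PGCLCs (log2 difference 0.59, limma adjusted p = 0.0501). Krt42 was at 0.266 and 0.482 TPM in pESC-PGCLCs and at 0 in both ESC-PGCLC libraries. With a pseudocount of 0.1 in place of 1, 14 of 60 genes (23.3%) were called by limma, all higher in pESC-PGCLCs, against 19.5% of all genes tested in either direction and 15% higher. With limma-voom on the recovered reads 7 of 59 (11.9%) were, 6 of them higher, against 17.5% of all genes tested. Calca, Saa3, Serpinb1a, Serpina3m, Vwa3b and Krt42 were higher in both of these fits. They had 15, 46, 45, 14, 36 and 12 reads in turn over all germ cell libraries. The pESC-PGCLC libraries held 14807851 and 16704590 reads and the ESC-PGCLC libraries 7697696 and 6779848. The part of depth in these calls near 0 was not tested. Cd3g was lower by voom, from 4 reads over all germ cell libraries.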

How the data were processed

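The authors aligned reads to mm10 with Hisat2 and counted them on genes with Feature-counts. The submitters' processing notes also name Bowtie2, RSEM, DESeq2 and R 3.4.2, with no role given. The deposited values are TPM of 36066 symbols in 10 libraries, with no other normalization. No deposited column was left unused.

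Symbols were matched to GENCODE M21 (GRCm38). TPM multiplied by exon length gave whole reads, within 0.02 reads (0.04% above 50 reads), for 95.7% to 96.5% of values above 0. In R 4.3.3, limma 3.58.1 was run on log2(TPM + 1) with 1 term per group over all 10 libraries and a variance prior that followed the mean level. The fit was tested on simulated data. Tables and figures were made with pandas 2.3.3, numpy 2.4.6 and matplotlib 3.10.9.

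The 60 genes, the role groups and the lists were chosen with earlier results of these data known, and any of the 60 could be named, as there were no more than 60. Named besides them were the 3 genes nearest outside each limit. Promoters were shown in order of the stem cell mean. Voom on recovered reads and the CpG content of transcript starts were added after seeing the data. Other limits, scalings, filters, pseudocounts, a replicate block and leaving out each library were tried as alternatives. Methylation data and imaging were not analysed here.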

Additional observations from a re-analysis of the deposited data

Results flagged for a closer look

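For 14 of the 60 genes, both pESC libraries differed one way from both ESC libraries and both pESC-PGCLC libraries differed the other way from both ESC-PGCLC libraries. The difference between these effects was not tested. Over all 27259 genes tested, 25% moved opposite ways in this sense, a share close to that of the 60 genes. In stem cells the log2 fold changes of pESCs against ESCs were -1.04 for Krt42, -0.69 for Ephx1, -0.60 for Dnah2os, -0.54 for Accsl, -0.45 for Slc41a3, -0.36 for 1700030C10Rik, -0.36 for Upk1a, -0.36 for H2-M5, -0.34 for Pir, -0.31 for Saa3 and -0.31 for Nodal, all with higher values in pESC-PGCLCs. They were 0.53 for Fxyd4, 0.74 for Cd3g and 1.04 for Obox6, which were lower in pESC-PGCLCs. After median centring 7 of the 14 still moved opposite ways without overlap: Krt42, Ephx1, Dnah2os, Accsl, Fxyd4, Cd3g and Obox6. The share of all genes tested that did so after centring was not counted, so these 7 cannot be set against it. All PGCLC values concerned are under 1 TPM. Over all germ cell libraries these 7 genes had 12, 38, 3, 6, 14, 4 and 13 reads in turn.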

How the results depend on the processing

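The number of genes found followed the limits. It was 24 with a floor of 10 TPM, 110 with a floor of 3 TPM, 32 with a ceiling of 0.5 TPM, 118 with a ceiling of 2 TPM, 109 after median centring and 115 after quantile normalization. The 109 and the 115 genes each held 58 of the 60. Leaving out each library in turn gave 60 to 78 genes. With no symbols left out there were 75. The cause of the larger counts under other scalings was not tested.

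The calls between pESCs and ESCs changed with the processing. Of the 60 genes 3.33% were called with quantile normalization and 5% with median centring, against 0.45% and 0.649% of all genes tested. With voom it was 3.39% of 59 genes against 1.69%, and with a pseudocount of 0.1 it was 0% against 0.906%. The filter of 1 TPM called 402 of 17694 genes, no filter 132 of 34742 and the compared groups alone 0 of 20815. Against 1 gene, there were 0 with a pseudocount of 0.1, 2 with a filter of 1 TPM, 0 with no filter, 0 with the compared groups alone, 2 with quantile normalization, 3 with median centring, 2 with voom on recovered reads and 0 to 4 when a replicate was left out. The 4, found without pESC replicate 2, were Zp3, Ms4a10 and Krt42, lower, and Platr13, higher. Krt42 kept its direction under all 12 alternatives and was still called under 2 of them, the filter of 1 TPM and the fit without pESC replicate 2. Between the 2 kinds of PGCLC there were 14 calls with a pseudocount of 0.1 and 7 with voom on recovered reads. The median log2 fold change of the 60 genes in pESCs was 0.0687 after quantile normalization and 0.13 after median centring, and -0.35 to -0.08 when a replicate was left out.

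With replicate number as a replicate block, 0 genes were called between pESCs and ESCs (Krt42 at a limma adjusted p of 0.0733) and 0 between the PGCLCs. The numbers were not taken to pair the samples. The correlation of same-numbered deviations was over 0.1 in 1 of 10 pairs of groups, and it was 0.045 between ESCs and pESCs. Depth limits the germ cell values, where 3 reads on 2183 nt, the median exon length over all genes, equal 0.146 to 0.338 TPM.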

Other observations

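Another 15 symbols met both limits and were left out for their names, all of them beginning with Gm. The most abundant were Gm26298, a microRNA gene (53.3 TPM in stem cells), Gm44722 (40.5 TPM), which lies across Trpm1 on the other strand but shares 12 exon bases with it, and Gm49504 (36.1 TPM). Gm28434, Gm8332, Gm16220, Gm20625 and Gm27234 were listed at 0 in all germ cell libraries. The predicted gene Gm36099, at 12.4 TPM, lies 44.0 kb from Serpinb1b.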
